A study of Homo sapiens with 6 samples.

Results

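The library of the lung adenocarcinoma line labelled PC-9GR was compared with that of its labelled parental line, PC-9, over all 16843 genes of the deposited table that holds both, with the genes of chromosome Y left out. PC-9 was grown from a lung adenocarcinoma whose growth depends on an activating deletion in EGFR, and it is widely used as a model sensitive to EGFR tyrosine kinase inhibitors. PC-9GR is given as a derivative with acquired resistance to such inhibitors, and the labels do not spell out GR, the drug, its dose, the time of selection, or whether the line is 1 clone. The other libraries of the study were PC-9ER, labelled as a further derivative of PC-9, and HCC827, HCC827GR and HCC827ER, from another EGFR-mutant adenocarcinoma; 1 label reads HCC82GR, taken here as HCC827GR. All 6 lines were cultured in RPMI-1640 with fetal bovine serum, with no inhibitor named for any of them, and stranded libraries were made from total RNA after removal of ribosomal RNA. The study asks which signalling pathways accompany acquired resistance, and its title names the secreted trefoil peptide TFF3 and the Hippo pathway.

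Each line had 1 library, so no spread between cultures can be given and no test of a difference between these lines exists. The library totals were 16897443 expected counts for PC-9 and 17855052 for PC-9GR, and they lay between 14529321 (HCC827) and 17292308 (HCC827ER) in the other 4. Levels are given as CPM (counts per 1000000 counts of the library), and ratios as PC-9GR over PC-9. A count of 0 allows up to 3 counts, which is 0.178 CPM in PC-9 and 0.168 CPM in PC-9GR, so a ratio against 0 is given as a lower bound. Where both counts are above 0, the printed fold uses them as listed, without raising counts under 3. A fold resting on 1 or 2 counts is therefore larger than the bound that 0 counts would give. Log2 ratios, calls and the ranking of genes raise counts under 3 to 3. Where 2 values follow a gene with no library named, PC-9 comes before PC-9GR. Intervals are 95% binomial intervals for counting error alone, computed from rounded expected counts. The reads carry no molecular identifiers, so copies of 1 fragment are counted as separate reads and the intervals can be too narrow.

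The PC-9GR library stood far from its labelled parent. Its Spearman correlation with PC-9 across the 16843 genes was 0.831, and it was 0.865 with HCC827 and 0.871 with HCC827GR. By the same measure the unrelated parents HCC827 and PC-9 stood at 0.877, and HCC827GR and HCC827 at 0.957. Over the 15998 genes listed in both deposited tables, PC-9ER and PC-9 stood at 0.970 and PC-9GR and PC-9 at 0.825. Against the same PC-9 library, PC-9ER had 704 genes at least 2-fold higher (5.73%) and 964 lower (7.85%) of 12288. HCC827GR had 1062 higher (8.43%) and 1150 lower (9.13%) than HCC827 of 12598. These shares are the background for the list counts given for those lines. The correlations describe genes within libraries, which are not independent replicates. Whether PC-9GR descends from PC-9 was not tested, and every ratio reported here is that of the library labelled PC-9GR to the library labelled PC-9.

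As background, lung adenocarcinoma cells are held together as an epithelium by cadherins, claudins and desmosomes, whose genes are kept on by factors such as GRHL2, ELF3 and OVOL and by the splicing regulators ESRP1 and ESRP2. ZEB and SNAI repressors bind E-box sequences in such genes, and their gain together with vimentin and N-cadherin is known as epithelial-mesenchymal transition, a state often seen in cells that tolerate EGFR inhibitors. EGFR signals through RAS and ERK to feedback genes such as DUSP6 and SPRY4, while Hippo kinases restrain the coactivators YAP1 and WWTR1 (TAZ).

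Much of the transcriptome differed in size between these libraries. Of 13133 genes with at least 1 CPM in either library, 2860 were at least 2-fold higher in PC-9GR (21.8%) and 2759 were at least 2-fold lower (21.0%). These percentages are the background against which each list is to be read. A list count near them is not read as a result about that list, also where this is not repeated. In bulk RNA, a lower level in every cell and fewer cells with the transcript cannot be told apart. At 4-fold the numbers were 1525 and 1377, and at 100-fold 184 and 215, while 5034 genes (38.3%) lay within 1.5-fold and the median log2 ratio of all genes was -0.01. The genes called lower took 25.8% of all counts in PC-9 and 6.75% in PC-9GR. The genes called higher took 7.33% in PC-9 and 28.3% in PC-9GR. A gene was counted as switched on where PC-9 had at most 3 counts and PC-9GR at least 5 CPM, which held for 368 genes (2.8%). The reverse, switched off, held for 260 genes (1.98%).

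**Figure D1:**
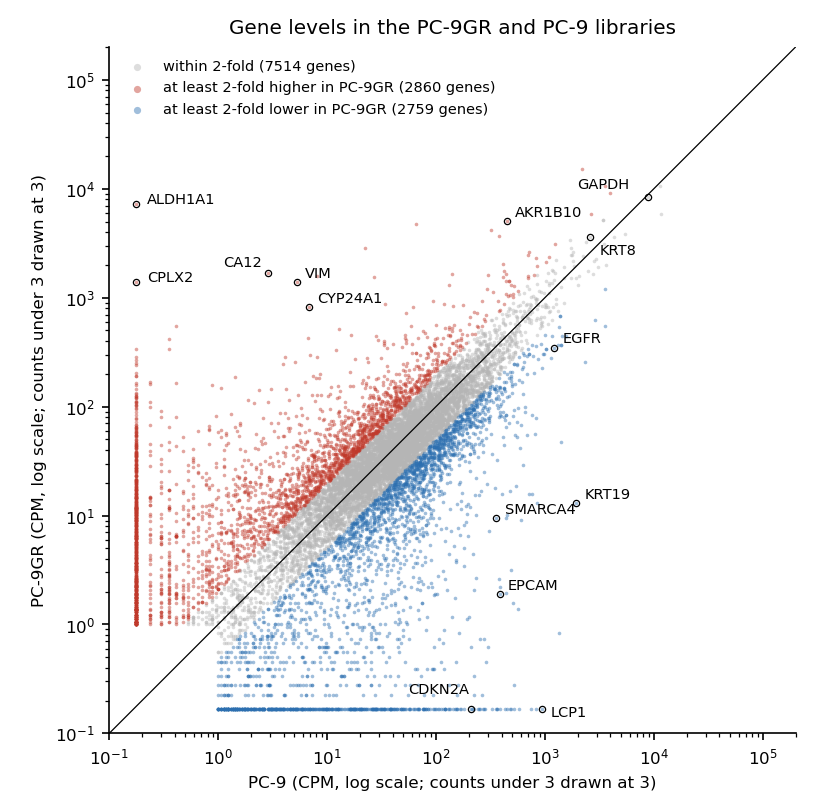
Level of each gene with at least 1 CPM in either library, in PC-9 (horizontal) and PC-9GR (vertical), both in CPM on log axes, with counts under 3 drawn at 3; red points are at least 2-fold higher and blue points at least 2-fold lower in PC-9GR, and the line marks equal levels. GAPDH and KRT8 lie near the line, whereas ALDH1A1 (1 count in PC-9, 7196 CPM in PC-9GR) and LCP1 (949.7 CPM in PC-9, 1 count in PC-9GR) lie at opposite edges.

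Among genes with at least 50 CPM in the higher library, the smallest ratio was that of LCP1, the actin-bundling protein L-plastin (chr13:46125923-46182177, GRCh38), with 949.7 CPM in PC-9 and 1 count in PC-9GR, 16958-fold lower (95% interval 3043 to 669825). With counts under 3 raised to 3, its log2 ratio was -12.46. Its other libraries held 930.0 CPM in PC-9ER, 424 CPM in HCC827, 378 CPM in HCC827GR and 60.2 CPM in HCC827ER, so PC-9GR was alone in lacking it. ANO1, a calcium-activated chloride channel, had 832 CPM in PC-9 and 3 counts in PC-9GR, 4949-fold lower (95% interval 1693 to 24003). The myelin and lymphocyte protein MAL, a raft component of apical membranes, had 748 CPM in PC-9 and 0 counts in PC-9GR, at least 4455-fold lower, and its relative MAL2 had 515 CPM in PC-9 and 1 count in PC-9GR. PROM2, a protein of membrane protrusions, had 452 CPM in PC-9 and 2 counts in PC-9GR. The adhesion receptors ADGRF5 and ADGRF1, neighbours on chromosome 6, had 426 CPM and 362 CPM in PC-9 and 0 counts each in PC-9GR, at least 2537-fold and at least 2154-fold lower. ST14, KLK6, KLK5 and MUC16, also among these 12 genes, belong to the protease and mucin groups described with their lists.

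At the other end stood ALDH1A1, the cytosolic retinal dehydrogenase (chr9:72900671-72953053, GRCh38), with 1 count in PC-9, 7196 CPM in PC-9GR, 0 counts in PC-9ER, 2.34 CPM in HCC827, 187 CPM in HCC827GR and 698 CPM in HCC827ER. From the counts as listed, PC-9GR was 121597-fold higher than PC-9 (95% interval 21824 to 4802860.0). With counts under 3 raised to 3, the log2 ratio of ALDH1A1 was 15.31. CPLX2, complexin 2 of synaptic vesicle fusion, had 0 counts in PC-9 and 1398 CPM in PC-9GR, at least 7873-fold higher, and at most 3 counts in each of the other 4 libraries. BICC1, an RNA-binding protein of the kidney and other epithelia, had 0 counts and 242 CPM, at least 1360.2-fold higher, with 120.2 CPM in HCC827 and 232 CPM in HCC827GR. BASP1, a membrane-bound signalling protein first found in brain, had 0.414 CPM in PC-9 and 550.3 CPM in PC-9GR, 1328-fold higher (95% interval 644 to 3305). MRC2, an endocytic collagen receptor, had 2 counts in PC-9 and 205 CPM in PC-9GR, 1732-fold higher (95% interval 479 to 14309.8). CRIP1, a small LIM-domain protein, had 1 count in PC-9 and 189 CPM in PC-9GR, 3202-fold higher (95% interval 574 to 126492). C12orf75 had 0 counts in PC-9 and 191 CPM in PC-9GR, at least 1074-fold higher, against 296 CPM in HCC827. SIK1B, listed at 337 CPM in PC-9GR and 0 counts in PC-9, is a near-identical copy of SIK1 and its reads cannot be told apart from those of that gene.

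Markers of adenocarcinoma epithelium were split. KRT8, KRT18 and KRT7, the simple epithelial keratins, lay within 2-fold of PC-9, with 2568 CPM, 1784 CPM and 2818 CPM in PC-9 and 3630.4 CPM, 2448 CPM and 2175 CPM in PC-9GR. CDH1, E-cadherin, was 5.75-fold lower (95% interval 5.37 to 6.15) at 322 CPM in PC-9 and 56.0 CPM in PC-9GR. EPCAM was 201-fold lower (95% interval 144 to 291) at 383 CPM and 1.90 CPM, and KRT19 149-fold lower (95% interval 131 to 169.7) at 1939 CPM and 13.05 CPM. The lung lineage markers NKX2-1 (0.769 CPM in PC-9 and 0 counts in PC-9GR) and NAPSA (2 counts in PC-9 and 0.504 CPM in PC-9GR) were under 1 CPM in both libraries, so the lung origin named in the labels could not be read from them in either. The labelled epithelial type was thus visible in keratins 7, 8 and 18, while EPCAM and KRT19 were below their level in each of the other 5 libraries.

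Genes of epithelial adhesion and of its transcription and splicing control were lower in PC-9GR as groups. Of 29 junction genes with at least 1 CPM, 19 were at least 2-fold lower and 1 was higher, with a median log2 ratio of -2.52. Of 28 members of the list of transcription and splicing factors, 22 were lower and 1 was higher, with a median of -5.24. That list also holds other epithelial genes, such as MAL2, the proteases ST14 and PRSS8 and the kinase MAPK13, so its counts are not those of regulators alone. CDH3, P-cadherin, had 216 CPM in PC-9 and 2 counts in PC-9GR, 1928-fold lower (95% interval 533 to 15925). The tight junction protein CLDN7 had 277 CPM in PC-9 and 0.728 CPM in PC-9GR, 381-fold lower (95% interval 222 to 716). Plakoglobin, JUP, lay near its parent at 533 CPM and 450.4 CPM, and desmocollin 3, DSC3, was the single junction gene called higher, at 0.414 CPM and 6.38 CPM.

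GRHL2, the grainyhead factor that keeps junction genes on, had 94.3 CPM in PC-9, 0 counts in PC-9GR, 102 CPM in PC-9ER, 57.8 CPM in HCC827, 3 counts in HCC827GR and 2.60 CPM in HCC827ER. It was listed at 0 in PC-9GR, at least 561-fold below PC-9. ESRP1, which sets epithelial splice forms, had 265 CPM in PC-9 and 0.224 CPM in PC-9GR, 1181-fold lower (95% interval 461 to 4336), and the membrane protease ST14 (matriptase), counted with this list, had 487 CPM in PC-9 and 1 count in PC-9GR, 8701-fold lower (95% interval 1561 to 343698). MAPK13, a p38 kinase of epithelial cells, had 223 CPM in PC-9 and 0.336 CPM in PC-9GR, 664-fold lower (95% interval 305 to 1809). RBM47 (139 CPM and 111 CPM) and KLF5 (114 CPM and 83.7 CPM) lay within 2-fold, and ELF3 was the 1 factor called higher, at 159 CPM in PC-9 and 349.8 CPM in PC-9GR. Keratins followed no single direction: 8 of 16 were lower and 4 higher. The lower ones included KRT19 (1939 CPM and 13.05 CPM) and KRT23 (19.9 CPM and 1 count). Also lower were KRT6B (35.7 CPM and 0 counts) and KRT16 (11.8 CPM and 1 count), both of stratified or activated epithelium. The 4 higher ones were KRT4 (0 counts and 13.3 CPM), KRT81 (376 CPM and 3645 CPM), KRT86 (1.83 CPM and 7.22 CPM) and KRT10 (11.6 CPM and 55.3 CPM); KRT81 and KRT86 are close paralogs that can share reads.

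Promoters of the epithelial genes were read for CAGGTG, the E-box bound by ZEB and SNAI repressors, on both strands, in a window from 250 bases before to 50 bases after the RefSeq start (GRCh38.p14). The motif was present in 11 of 22 promoters of the epithelial list genes called lower, in 16 of 34 of all epithelial list genes with at least 1 CPM and a promoter in the table (47.1%), and in 18.9% of the 10705 promoters of genes with at least 1 CPM. It stood in 64 of 179 promoters of switched-off genes (35.8%), in 18.5% of switched-on genes and in 20.6% of all 27305 promoters of that table. The share over the whole epithelial lists was close to that of their lower members. Promoters of switched-off genes also differed in base composition: the median ratio of observed to expected CpG was 0.536, against 0.754 for switched-on genes and 0.867 for genes within 2-fold. A match is a description of the letters and not a measured binding site.

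The promoters of AP1M2 (adaptor of basolateral sorting; chr19:10587263-10587562, minus strand; 145 CPM in PC-9 and 36.5 CPM in PC-9GR), GRHL3 (a grainyhead factor; chr1:24319107-24319406, plus strand; 5.92 CPM in PC-9 and 0.504 CPM in PC-9GR), MAPK13 (chr6:36130263-36130562, plus strand) and CDS1 (a phosphatidate enzyme; chr4:84582877-84583176, plus strand; 97.9 CPM in PC-9 and 1.90 CPM in PC-9GR) are shown, chosen after their values were seen, because these genes were lower and carry the motif, which is in capitals on either strand; the start site follows base 250.
AP1M2: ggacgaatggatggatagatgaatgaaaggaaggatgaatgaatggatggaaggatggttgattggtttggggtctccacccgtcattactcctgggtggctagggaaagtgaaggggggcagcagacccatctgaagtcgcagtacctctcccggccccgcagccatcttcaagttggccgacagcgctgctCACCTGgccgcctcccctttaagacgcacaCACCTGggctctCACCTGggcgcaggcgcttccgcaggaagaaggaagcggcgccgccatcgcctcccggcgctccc
GRHL3: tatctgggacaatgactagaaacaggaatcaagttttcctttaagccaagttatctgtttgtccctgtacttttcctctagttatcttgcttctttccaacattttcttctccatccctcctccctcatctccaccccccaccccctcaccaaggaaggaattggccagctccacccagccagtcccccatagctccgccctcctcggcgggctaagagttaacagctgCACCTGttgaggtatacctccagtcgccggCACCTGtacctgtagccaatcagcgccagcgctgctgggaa
MAPK13: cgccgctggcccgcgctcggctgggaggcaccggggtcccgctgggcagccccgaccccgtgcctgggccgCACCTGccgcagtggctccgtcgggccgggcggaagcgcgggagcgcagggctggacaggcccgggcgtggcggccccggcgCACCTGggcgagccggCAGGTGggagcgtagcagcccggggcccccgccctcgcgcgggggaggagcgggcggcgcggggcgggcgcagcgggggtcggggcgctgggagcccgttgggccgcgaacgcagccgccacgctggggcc
CDS1: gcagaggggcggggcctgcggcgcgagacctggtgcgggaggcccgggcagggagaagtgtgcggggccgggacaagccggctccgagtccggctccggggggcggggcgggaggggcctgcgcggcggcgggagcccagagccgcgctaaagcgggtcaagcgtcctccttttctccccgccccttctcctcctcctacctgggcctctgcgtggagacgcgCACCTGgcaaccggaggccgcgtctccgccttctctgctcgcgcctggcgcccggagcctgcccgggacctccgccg
AP1M2 and MAPK13 hold 3 matches each within 300 bases, GRHL3 holds 2 and CDS1 holds 1.

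**Figure D2:**
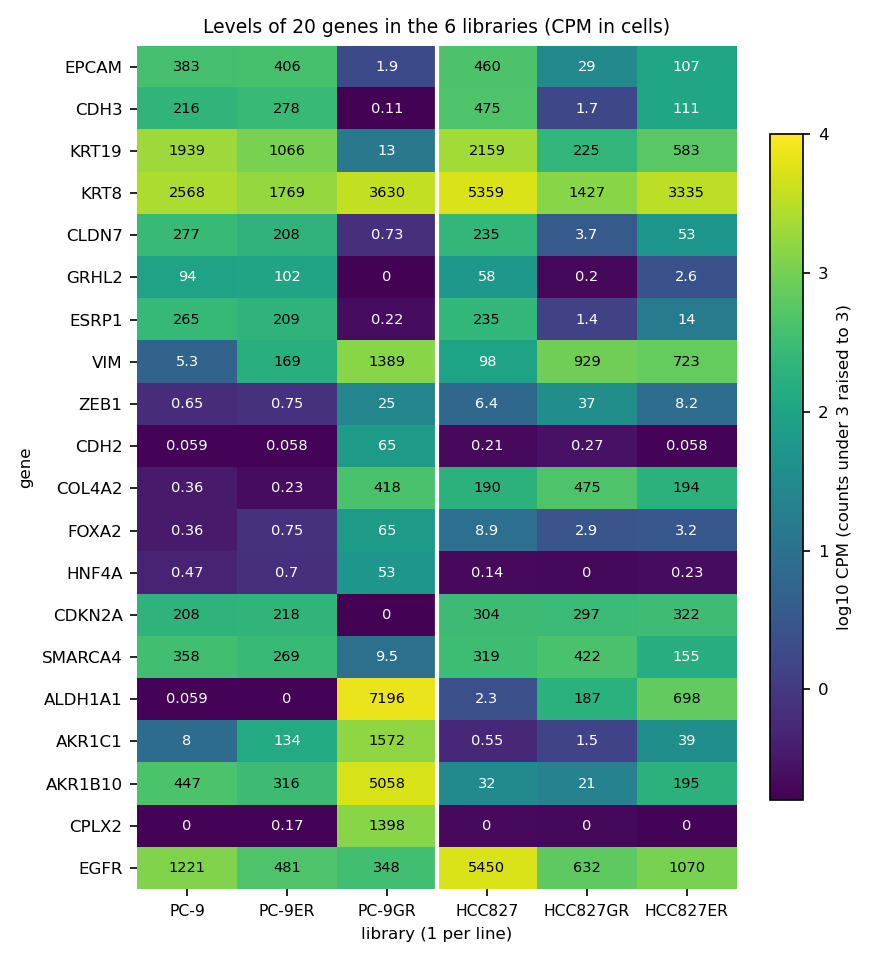
Level of 20 genes (rows) in the 6 libraries (columns), with the CPM printed in each cell and the colour giving log10 CPM after counts under 3 were raised to 3. PC-9ER resembles PC-9 in most rows, whereas PC-9GR has 1.90 CPM of EPCAM and 1389 CPM of VIM against 383 CPM and 5.27 CPM in PC-9.

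Mesenchymal genes showed gains and losses side by side. VIM, vimentin (chr10:17228241-17237593, GRCh38), had 5.27 CPM in PC-9, 1389 CPM in PC-9GR, 169 CPM in PC-9ER, 98.0 CPM in HCC827, 929 CPM in HCC827GR and 723 CPM in HCC827ER. The PC-9GR value was 264-fold higher (95% interval 214 to 329) than in PC-9, and VIM was also higher in PC-9ER than in PC-9 and in HCC827GR than in HCC827. N-cadherin, CDH2, had 1 count in PC-9 and 64.7 CPM in PC-9GR, 1094-fold higher (95% interval 196 to 43248), and the related CDH4 had 2 counts in PC-9 and 29.9 CPM in PC-9GR; in HCC827GR CDH2 was at 0.267 CPM. ZEB1, a repressor of epithelial genes, had 0.651 CPM in PC-9 and 25.2 CPM in PC-9GR, 38.7-fold higher (95% interval 21.4 to 78.1), with 36.9 CPM in HCC827GR. TBX3 and TWIST2, further repressors of this group, had 0 counts in PC-9 and 32.9 CPM and 15.7 CPM in PC-9GR. Of 18 mesenchymal transcription factors, however, 7 were higher and 9 lower (median -0.85), among the lower ones the homeobox factor SIX2 at 21.4 CPM and 0.224 CPM. Of 21 genes of the mesenchymal cytoskeleton and adhesion, 11 were higher and 7 lower (median 1.27), with tenascin C, TNC, at 160.0 CPM in PC-9 and 0.280 CPM in PC-9GR, 571-fold lower (95% interval 245 to 1761). Fascin, FSCN1 (309 CPM and 322 CPM), and moesin, MSN (737 CPM and 588 CPM), lay within 2-fold.

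Matrix genes stood on both sides, and integrins were lower more often than higher. The shares of laminins and basement membrane genes on either side and of higher integrins were near the 21.8% higher and 21.0% lower of all genes. Of 20 collagen genes 9 were higher and 7 lower. COL4A2, of basement membranes, had 0.355 CPM in PC-9 and 418 CPM in PC-9GR, 1176-fold higher (95% interval 540.2 to 3206), and the fibrillar COL5A2 had 0.237 CPM in PC-9 and 167 CPM in PC-9GR, 706-fold higher (95% interval 276 to 2594). COL8A1 went the other way at 10.4 CPM and 0 counts, and COL17A1, the hemidesmosomal collagen, at 16.7 CPM and 0.392 CPM. Among 18 laminins and basement membrane genes 5 were higher and 5 lower. The higher ones were the linkers NID1 (1 count in PC-9, 16.5 CPM in PC-9GR) and NID2 (0 counts, 43.6 CPM), the fibrillins FBN1 (0.829 CPM, 22.2 CPM) and FBN2 (0 counts, 37.6 CPM), and EFEMP1 (0.947 CPM, 30.1 CPM). The lower ones included LAMA4 (277 CPM, 1 count), LAMB3 (609.5 CPM, 9.02 CPM), DAG1 (276 CPM, 116 CPM) and FBLN1 (307 CPM, 77.8 CPM). LAMB3 is a laminin chain of epithelial basement membranes, and LAMB1, of other laminins, was close in both at 274 CPM and 287 CPM. Integrin subunits gave 4 higher and 8 lower of 17. ITGB6, which activates TGF-beta on epithelia, had 147 CPM and 5.21 CPM, and ITGA2 of the collagen receptor 557 CPM and 71.6 CPM. ITGB1 (709.9 CPM, 2598 CPM), ITGA4 (0 counts, 2.91 CPM), ITGA10 (0.296 CPM, 1.06 CPM) and the collagen-binding ITGA11 (3 counts, 11.5 CPM) were the 4 higher subunits.

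Proteases of the cell surface and their inhibitors were lower as a group, with 16 of 23 lower, 3 higher and a median log2 ratio of -5.54. The kallikreins KLK6 and KLK5 had 481 CPM and 386 CPM in PC-9 and 0 counts each in PC-9GR, at least 2863-fold and at least 2296-fold lower. TMPRSS13, a membrane serine protease, had 95.04 CPM in PC-9 and 0 counts in PC-9GR, and SPINT1, the inhibitor of matriptase, 301 CPM and 0.616 CPM, 489-fold lower (95% interval 273 to 981). The related SPINT2 (476 CPM, 292 CPM) and urokinase, PLAU (184 CPM, 140.4 CPM), lay within 2-fold. The higher members included SERPINB1 (47.0 CPM, 115 CPM) and SERPINA3 (1 count, 1.68 CPM). Of 23 matrix metalloproteinases and their inhibitors 13 were lower and 5 higher: the inhibitor TIMP3 had 568 CPM in PC-9 and 1.40 CPM in PC-9GR, 406-fold lower (95% interval 275 to 627), and the membrane-type MMP14 49.7 CPM and 0.896 CPM. The 5 higher members were MMP24 (3.08 CPM, 144 CPM), MMP7 (0.592 CPM, 33.4 CPM), MMP2 (0.592 CPM, 12.2 CPM), MMP17 (0.829 CPM, 12.6 CPM) and TIMP1 (52.1 CPM, 109 CPM).

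Secretory and lineage genes differed in identity. Of 12 mucins and secretory cell genes 9 were lower and 3 higher. The large membrane mucin MUC16 had 366 CPM in PC-9 and 0 counts in PC-9GR, at least 2176-fold lower, and WFDC2, a secreted airway protein, 253 CPM and 0 counts, at least 1508-fold lower. Lipocalin 2, LCN2, had 849 CPM and 13.1 CPM. The higher members were the gut-type mucin MUC13 (0 counts, 21.1 CPM), the gel-forming airway mucin MUC5AC (0 counts, 9.91 CPM) and AGR2, a chaperone of mucin folding (33.0 CPM, 157 CPM). Of the 15 lung lineage and alveolar genes 7 were higher and 7 lower. Endoderm factors of this list stood on both sides. HNF4A had 0.473 CPM in PC-9, 52.8 CPM in PC-9GR, 0.696 CPM in PC-9ER, 2 counts in HCC827, 0 counts in HCC827GR and 0.231 CPM in HCC827ER, so it was above 1 CPM in PC-9GR alone. The pioneer factor FOXA2 was higher at 0.355 CPM and 64.9 CPM, whereas its relative FOXA1 was lower at 86.3 CPM and 11.6 CPM, as was GATA6 at 16.9 CPM and 6.16 CPM. FOXA1 and GATA6 were named after their values were seen. CEACAM6, a surface adhesion protein, had 1341 CPM and 0.840 CPM, 1597-fold lower (95% interval 968 to 2853), and LPCAT1, of surfactant lipid synthesis, 352 CPM and 153 CPM.

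HOX genes, which carry positional identity along the body axis, were higher in 15 of 25 cases and lower in 4 (median log2 ratio 1.62). HOXB13, HOXA7 and HOXD8 had 0 counts in PC-9 and 12.7 CPM, 9.47 CPM and 9.30 CPM in PC-9GR. The 4 lower members were HOXA3 (35.1 CPM, 7.56 CPM), HOXC13 (37.7 CPM, 6.78 CPM), HOXA2 (3.79 CPM, 1.01 CPM) and HOXC11 (1.12 CPM, 3 counts), while HOXB7 was close at 47.6 CPM and 32.7 CPM. Of 15 neuroendocrine and neuronal genes 9 were higher and 4 lower: the neuronal enolase ENO2 had 2.25 CPM and 56.2 CPM, synaptotagmin SYT1 0.888 CPM and 19.0 CPM, and the granin CHGB 0 counts and 5.54 CPM. The lower ones were NCAM1 (16.2 CPM, 0 counts), NEFH (24.9 CPM, 1 count), L1CAM (81.1 CPM, 8.18 CPM) and MAP2 (2.84 CPM, 1.01 CPM). Squamous and basal genes were mostly lower, 5 of 8: TRIM29 (96.3 CPM, 0.392 CPM), SOX15 (45.5 CPM, 0.560 CPM), SPRR1A (7.04 CPM, 0 counts), BNC1 (1.12 CPM, 0 counts) and SERPINB3 (1.24 CPM, 0 counts). SOX2, a factor of stem and basal cells, was higher at 2.37 CPM and 13.4 CPM, as was DSC3.

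**Figure D3:**
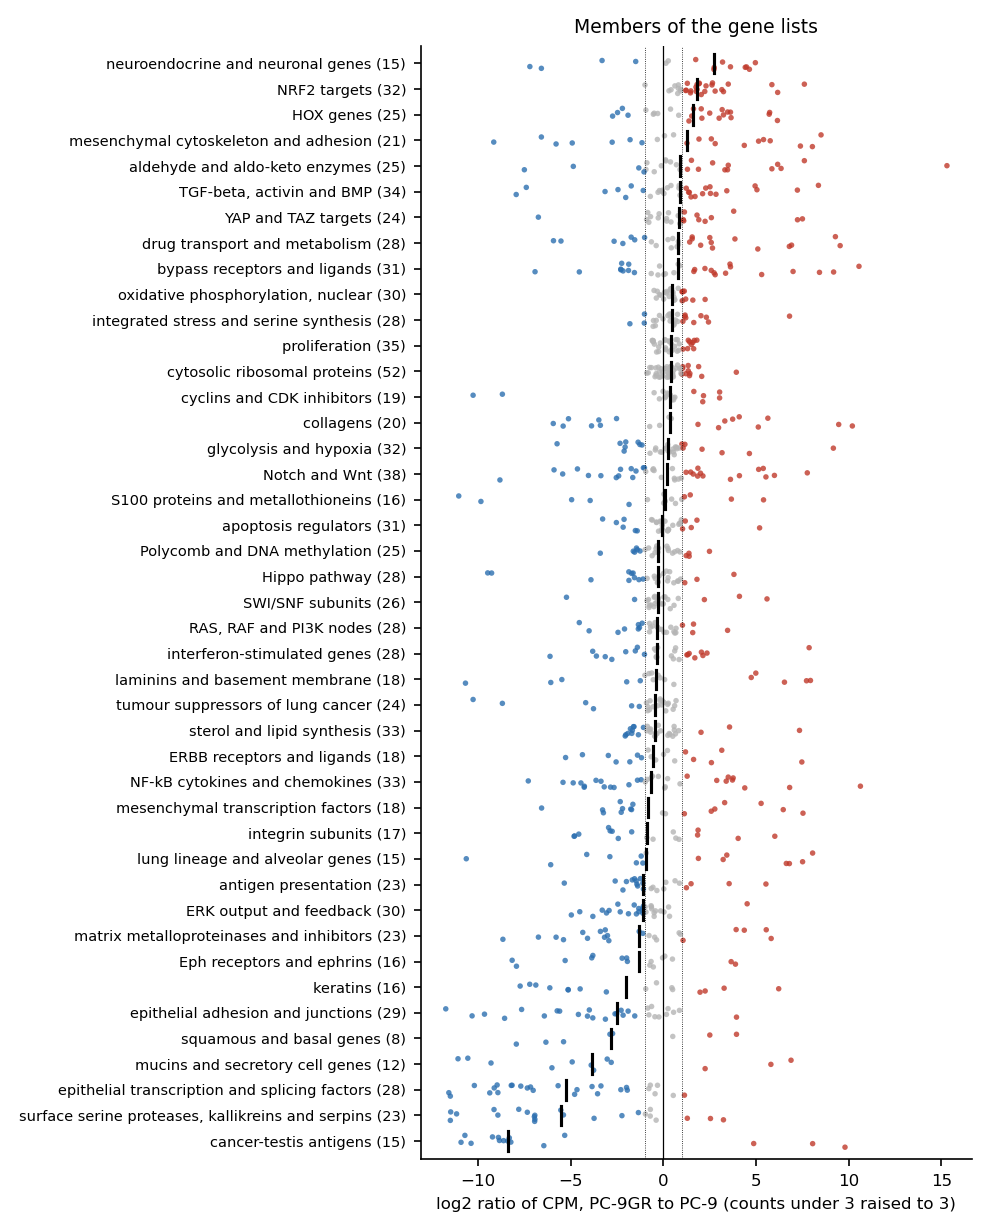
Log2 ratio of CPM, PC-9GR to PC-9, for each member with at least 1 CPM in either library (points, coloured where at least 2-fold) of gene lists with at least 8 such members, whose number is in brackets; the bar is the list's median and dotted lines mark 2-fold. Cancer-testis antigens have the lowest median (-8.41) and neuroendocrine and neuronal genes the highest (2.73).

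The receptor that the inhibitors target was lower. EGFR had 1221 CPM in PC-9, 348 CPM in PC-9GR, 481 CPM in PC-9ER, 5450.3 CPM in HCC827, 632 CPM in HCC827GR and 1070.2 CPM in HCC827ER, so PC-9GR held the lowest level of the 6 libraries, 3.51-fold lower (95% interval 3.41 to 3.61) than PC-9. Of 18 ERBB receptors, ligands and their regulators 5 were higher and 7 lower. ERBB3, the partner that recruits PI3K, had 120.5 CPM and 5.82 CPM, 20.7-fold lower (95% interval 17.0 to 25.4), whereas ERBB2 lay within 2-fold at 135 CPM and 101 CPM. Among the EGFR ligands HBEGF had 84.9 CPM and 2.18 CPM, TGFA 76.1 CPM and 9.69 CPM, AREG 3.20 CPM and 28.4 CPM, and EREG 18.2 CPM and 56.4 CPM. The ERBB3 ligand NRG1 had 0.888 CPM in PC-9, 158 CPM in PC-9GR, 0.812 CPM in PC-9ER, 53.3 CPM in HCC827, 54.0 CPM in HCC827GR and 17.8 CPM in HCC827ER, 178-fold higher (95% interval 108 to 318) in PC-9GR than in PC-9. NRG4, a ligand of ERBB4, had 0.710 CPM and 1.62 CPM, and LRIG1, which promotes receptor turnover, 1.60 CPM and 9.63 CPM.

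Genes that report ERK activity were mostly lower: 17 of 30 were at least 2-fold lower, 1 was higher, and the median log2 ratio was -1.11. The ERK phosphatase DUSP6 had 93.8 CPM in PC-9, 11.1 CPM in PC-9GR, 7.31 CPM in PC-9ER, 15.9 CPM in HCC827, 1.54 CPM in HCC827GR and 0.347 CPM in HCC827ER, 8.42-fold lower (95% interval 7.26 to 9.80) in PC-9GR than in PC-9. SPRY1, a feedback inhibitor of receptor signalling, had 51.2 CPM and 2.24 CPM, 22.9-fold lower (95% interval 16.6 to 32.2), and DUSP2 5.27 CPM and 1 count. The exception was DUSP1, a stress-responsive phosphatase, at 8.64 CPM and 198 CPM, 23.0-fold higher (95% interval 19.5 to 27.3), and JUNB (127 CPM, 130.5 CPM) and PHLDA1 (136 CPM, 165 CPM) were close. PC-9ER, which shares the PC-9 library as its reference, had 19 of 30 lower with a median of -1.41, and HCC827GR against HCC827 14 of 28 with -0.95.

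Receptors and ligands that can bypass EGFR were higher in 14 of 31 cases and lower in 9. FGF2, a ligand of FGF receptors, had 2 counts in PC-9, 104 CPM in PC-9GR, 1 count in PC-9ER, 24.0 CPM in HCC827, 38.4 CPM in HCC827GR and 19.2 CPM in HCC827ER, 875-fold higher (95% interval 242 to 7234) in PC-9GR than in PC-9. NTRK3, the neurotrophin-3 receptor, had 0 counts in PC-9 and 61.0 CPM in PC-9GR, at least 344-fold higher. Among the binding proteins of insulin-like growth factors, IGFBP7 had 2 counts and 268 CPM, 2263-fold higher (95% interval 626 to 18689.8), and IGFBP4 22.1 CPM and 2833 CPM, 128-fold higher (95% interval 116 to 142), while IGFBP5 had 20.5 CPM and 1 count. TYRO3 (24.0 CPM, 24.4 CPM) and ROR1 (33.7 CPM, 36.4 CPM) were close, and MET, named after its values were seen because its amplification is a known bypass, lay within 2-fold at 163 CPM and 242 CPM. Eph receptors and ephrins gave 8 lower and 2 higher of 16: EPHA1 had 48.2 CPM and 1 count, EPHB6 68.4 CPM and 0.280 CPM, and the ligand EFNB2 153 CPM and 3.86 CPM, while EFNA2 (2 counts, 2.24 CPM) and EFNB3 (1 count, 2.63 CPM) were the higher ligands. Of 28 RAS, RAF and PI3K genes 8 were lower and 4 higher. The regulatory subunits PIK3R3 (90.0 CPM, 3.86 CPM) and PIK3R2 (253 CPM, 59.0 CPM) were lower, and MRAS (1.78 CPM, 19.6 CPM), RRAS (27.0 CPM, 83.3 CPM), HRAS (14.6 CPM, 43.6 CPM) and AKT1 (79.1 CPM, 161 CPM) were higher.

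**Figure D4:**
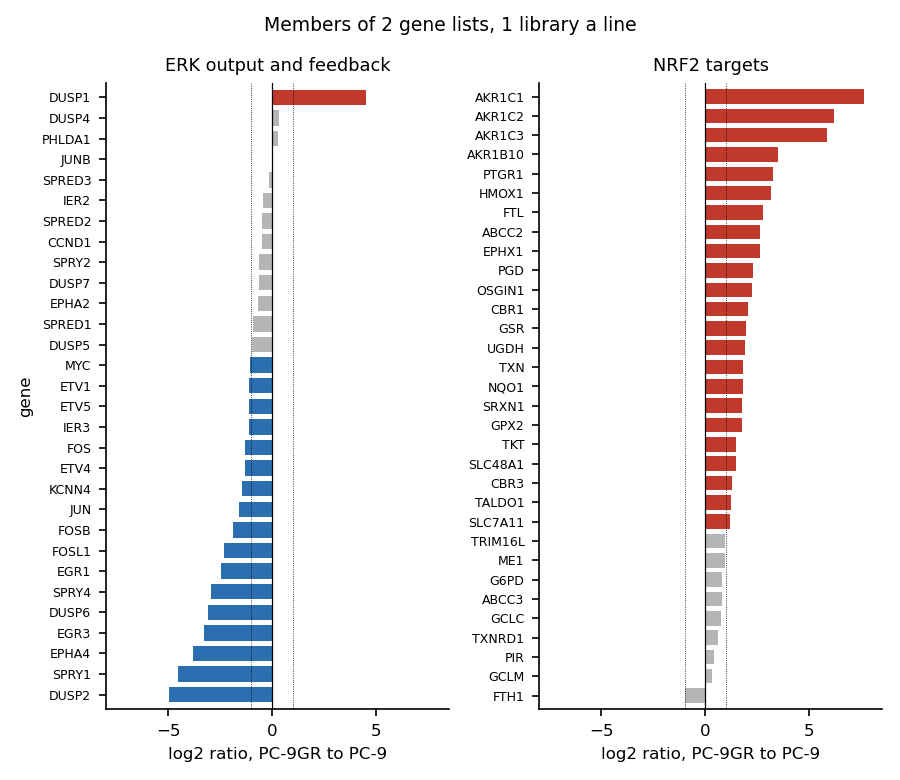
Log2 ratio of CPM, PC-9GR to PC-9, for each member with at least 1 CPM in either library of 2 lists; bars are red where at least 2-fold higher, blue where at least 2-fold lower and grey within 2-fold. ERK output genes lie mostly left of 0 (median -1.11) and NRF2 targets (1.80) mostly right of it.

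The gene in the study's title, TFF3, had 0 counts in PC-9 and 1 count in PC-9GR, so both libraries were within the limit of 3 counts and no ratio can be given. Within the Hippo pathway the coactivators differed in direction: YAP1 had 205 CPM in PC-9, 69.4 CPM in PC-9GR, 105 CPM in PC-9ER, 118 CPM in HCC827, 108 CPM in HCC827GR and 40.0 CPM in HCC827ER, 2.95-fold lower (95% interval 2.76 to 3.15) in PC-9GR than in PC-9. WWTR1 (TAZ) had 102 CPM in PC-9, 226 CPM in PC-9GR, 48.7 CPM in PC-9ER, 227 CPM in HCC827, 231 CPM in HCC827GR and 102 CPM in HCC827ER, 2.23-fold higher (95% interval 2.10 to 2.36). Of 28 pathway members 10 were lower and 3 higher. The scaffold AMOT had 120.4 CPM and 3 counts, 716-fold lower (95% interval 245 to 3477), its relative AMOTL1 295 CPM and 19.6 CPM, the TEAD cofactor VGLL1 104 CPM and 0 counts, at least 619-fold lower, and NF2, which activates the kinases, 77.6 CPM and 23.6 CPM. Besides WWTR1 the higher members were VGLL3 (6.33 CPM, 22.2 CPM) and the cadherin FAT4 (0.296 CPM, 4.14 CPM). Of 24 genes known to respond to YAP or TAZ 10 were higher and 1 lower, with a median log2 ratio of 0.84. CCN2, a matricellular protein, had 3 counts and 26.8 CPM, 151-fold higher (95% interval 51.4 to 735), FOXF2 1 count and 32.3 CPM, and the kinase NUAK2 10.3 CPM and 61.9 CPM. The lower member was tissue factor, F3, at 223 CPM and 2.07 CPM, 108-fold lower (95% interval 77.9 to 153).

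TGF-beta, activin and BMP genes gave 15 higher and 7 lower of 34. The BMP antagonist GREM1 had 0 counts in PC-9 and 58.7 CPM in PC-9GR, at least 331-fold higher, and the antagonist NOG 66.3 CPM and 0.392 CPM. INHBA, the activin A chain, had 55.3 CPM and 0.224 CPM, 247-fold lower (95% interval 96.0 to 907), its inhibitor follistatin, FST, 0.355 CPM and 11.8 CPM, and ID2, a BMP response gene, 0.296 CPM and 44.5 CPM. SMAD2 and SMAD4 lay near their PC-9 levels (117 CPM and 42.3 CPM) at 111 CPM and 43.2 CPM. Notch and Wnt genes gave 14 higher and 14 lower of 38: the ligands WNT7A and WNT10A had 76.2 CPM and 10.1 CPM in PC-9 and 0 counts each in PC-9GR. The secreted Wnt inhibitors DKK3 (2 counts, 38.7 CPM) and SFRP4 (0 counts, 8.23 CPM) and the receptor FZD8 (0 counts, 11.3 CPM) were higher.

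Of 24 tumour suppressors of lung cancer 6 were lower, a share near the 21.0% of all genes, and 0 were higher. The largest differences in this list were on chromosome 9. CDKN2A, which encodes p16 and ARF (chr9:21967752-21995324, GRCh38), had 208 CPM in PC-9, 0 counts in PC-9GR, 218 CPM in PC-9ER, 304 CPM in HCC827, 297 CPM in HCC827GR and 322 CPM in HCC827ER. PC-9GR was alone in lacking it, at least 1238-fold below PC-9. Its neighbours CDKN2B, a further CDK4 inhibitor, and MTAP, of methionine salvage, had 69.5 CPM and 53.6 CPM in PC-9 and 1 count and 3.92 CPM in PC-9GR, 1242-fold lower (95% interval 222 to 49081) and 13.7-fold lower (95% interval 10.7 to 17.7). The genes on either side, read after these values were seen, were KLHL9 at 21.1 CPM and 59.9 CPM and DMRTA1 at 1.18 CPM and 2.52 CPM, so the lower values were found in 3 adjacent genes among those with at least 1 CPM, spanning chr9:21802636-22009313. DNA was not measured, and loss of the genes and silencing cannot be told apart. STK11 and KEAP1, also read after their values were seen, lay within 2-fold at 56.8 CPM and 149 CPM in PC-9 and 46.0 CPM and 88.0 CPM in PC-9GR; RNA levels do not show whether a gene is mutated.

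SMARCA4, the BRG1 motor of the SWI/SNF chromatin remodeller (chr19:10961030-11062273, GRCh38), had 358 CPM in PC-9, 9.52 CPM in PC-9GR, 269 CPM in PC-9ER, 319 CPM in HCC827, 422 CPM in HCC827GR and 155 CPM in HCC827ER. It was 37.6-fold lower (95% interval 32.3 to 44.0) than in PC-9, while its paralog SMARCA2 was 4.63-fold higher (95% interval 3.93 to 5.49) at 10.2 CPM and 47.4 CPM. Of 26 subunits 21 lay within 2-fold, for example SMARCD1 at 74.3 CPM and 74.1 CPM. The other member called lower was BRD9 (57.6 CPM, 19.6 CPM), and BCL7A (0.355 CPM, 17.1 CPM) and SMARCD3 (1.01 CPM, 17.3 CPM) were higher. Among 25 Polycomb and DNA methylation genes 6 were lower, a share near that of all genes, with CBX7 at 65.9 CPM and 6.22 CPM. In this list 4 were higher, among them CBX2 (18.3 CPM, 43.0 CPM), CBX8 (8.82 CPM, 23.1 CPM) and TET1 (0.769 CPM, 4.31 CPM).

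CDKN1A, the CDK inhibitor p21, had 49.3 CPM in PC-9, 215 CPM in PC-9GR, 25.5 CPM in PC-9ER, 9.29 CPM in HCC827, 4.47 CPM in HCC827GR and 5.49 CPM in HCC827ER, 4.36-fold higher (95% interval 4.04 to 4.70) in PC-9GR than in PC-9. Among 19 cyclins and CDK inhibitors, cyclin D3, CCND3, had 52.5 CPM and 429.9 CPM, 8.19-fold higher (95% interval 7.64 to 8.79), and CDKN2C (p18) 5.86 CPM and 26.3 CPM. CDKN1C (3 counts, 1.46 CPM) and RBL1 (16.2 CPM, 50.5 CPM) completed the 5 higher members, and CDKN2A and CDKN2B were the 2 lower ones. Of 35 proliferation genes 9 were higher and 0 lower (median 0.41), with the topoisomerase TOP2A at 238 CPM and 716 CPM and RRM2 at 223 CPM and 236 CPM; 9 of 35 is near the 21.8% of all genes. Apoptosis regulators gave 5 higher and 6 lower of 31, shares not above those of all genes. The higher ones were BIRC5 (47.9 CPM, 136 CPM), the death receptors FAS (5.86 CPM, 20.6 CPM) and TNFRSF10B (67.5 CPM, 138 CPM), BBC3 (7.16 CPM, 16.2 CPM) and BCL2A1 (1 count, 6.50 CPM). The inflammatory caspase CASP4 was lower at 74.0 CPM and 7.62 CPM.

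Genes driven by NRF2, the factor that KEAP1 marks for degradation and that switches on glutathione, NADPH and carbonyl-reducing enzymes, were higher in 23 of 32 cases and lower in 0, with a median log2 ratio of 1.80. The aldo-keto reductase AKR1B10 had 447 CPM in PC-9, 5058 CPM in PC-9GR, 316 CPM in PC-9ER, 32.0 CPM in HCC827, 20.8 CPM in HCC827GR and 195 CPM in HCC827ER, 11.3-fold higher (95% interval 11.1 to 11.6) in PC-9GR than in PC-9. AKR1C1, AKR1C2 and AKR1C3, close paralogs whose reads can be shared, had 8.05 CPM, 66.0 CPM and 26.9 CPM in PC-9 and 1572 CPM, 4751 CPM and 1557 CPM in PC-9GR. PC-9ER was also above PC-9 for them, at 134 CPM, 2578 CPM and 380.4 CPM. PTGR1, an alkenal reductase, had 58.4 CPM and 554 CPM, 9.48-fold higher (95% interval 8.88 to 10.1), and the quinone reductase NQO1, a member outside the naming rule, 697 CPM and 2455 CPM. GCLM, of glutathione synthesis (259 CPM, 318 CPM), and PIR (68.0 CPM, 90.6 CPM) lay within 2-fold, as did NFE2L2, the gene of NRF2 itself, at 106 CPM and 130.0 CPM. PC-9ER had 9 of 32 members higher (median 0.37) and HCC827GR 3 of 32 (median -0.04).

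The core of the antioxidant response element, TGACNNNGC on either strand, was found in 7 of 23 promoters of NRF2 targets with at least 1 CPM (30.4%), in 3 of 18 of those called higher (16.7%) and in 15.0% of promoters of all genes with at least 1 CPM. The share among the higher targets is thus near that of all genes within this window. The promoters of GPX2, a glutathione peroxidase (chr14:64942696-64942995, minus strand; 81.7 CPM in PC-9 and 277 CPM in PC-9GR), and CBR1, a carbonyl reductase (chr21:36069774-36070073, plus strand; 36.2 CPM in PC-9 and 149 CPM in PC-9GR), are shown, also chosen after their values were seen, because both genes were higher and hold the element, in capitals.
GPX2: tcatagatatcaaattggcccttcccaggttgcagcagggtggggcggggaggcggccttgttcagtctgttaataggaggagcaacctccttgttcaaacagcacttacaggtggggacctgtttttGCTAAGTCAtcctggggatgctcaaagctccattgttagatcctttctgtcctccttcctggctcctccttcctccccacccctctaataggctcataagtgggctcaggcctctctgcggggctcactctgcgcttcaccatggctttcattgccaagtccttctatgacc
CBR1: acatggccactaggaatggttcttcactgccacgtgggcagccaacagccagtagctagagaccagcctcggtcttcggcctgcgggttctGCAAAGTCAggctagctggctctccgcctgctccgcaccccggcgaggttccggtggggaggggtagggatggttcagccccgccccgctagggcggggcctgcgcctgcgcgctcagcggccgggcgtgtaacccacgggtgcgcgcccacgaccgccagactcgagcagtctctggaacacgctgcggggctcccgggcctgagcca
In the other libraries GPX2 had 4.06 CPM in PC-9ER, 4.54 CPM in HCC827 and 0.534 CPM in HCC827GR, and CBR1 62.2 CPM, 64.9 CPM and 60.0 CPM.

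Further lists of detoxification genes differed by member. Of 25 aldehyde dehydrogenases and aldo-keto enzymes 12 were higher and 4 lower. This list overlaps the NRF2 targets, as both hold AKR1C1 and AKR1C2, so its count is not a separate one. The 4 lower ones were ALDH1A3, the isoform that makes retinoic acid in many epithelia (548 CPM, 18.8 CPM), ALDH3B2 (30.5 CPM, 0 counts), ALDH1L1 (4.50 CPM, 1.79 CPM) and ALDH6A1 (28.3 CPM, 13.7 CPM), so ALDH1A3 and ALDH1A1 were in opposite directions. Of 28 genes of drug transport and metabolism 13 were higher and 7 lower. CYP24A1, the vitamin D hydroxylase, had 6.81 CPM and 823 CPM, 121-fold higher (95% interval 101 to 147), and the cation transporter SLC22A3 0 counts and 132 CPM, at least 745-fold higher. NNMT, which methylates nicotinamide, had 0 counts in PC-9, 111 CPM in PC-9GR, 1 count in PC-9ER, 289 CPM in HCC827, 725 CPM in HCC827GR and 2484 CPM in HCC827ER. UGT1A6 was lower at 127 CPM and 2.07 CPM, although exons shared among UGT1A genes can carry reads of any of them, and GSTP1 was close at 821 CPM and 974 CPM.

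In central metabolism, glycolysis and hypoxia genes gave 7 higher and 8 lower of 32, shares near those of all genes. The carbonic anhydrase CA12 had 2.90 CPM in PC-9, 1676 CPM in PC-9GR, 12.9 CPM in PC-9ER, 0.482 CPM in HCC827, 1 count in HCC827GR and 5.90 CPM in HCC827ER, 578-fold higher (95% interval 437 to 782) in PC-9GR than in PC-9. Hexokinase 2, HK2, was 53.5-fold lower (95% interval 38.1 to 77.4) at 102 CPM and 1.90 CPM, while GAPDH was close at 8869 CPM and 8371 CPM. Nuclear genes of oxidative phosphorylation gave 8 higher and 0 lower of 30, with UQCRFS1 of complex III at 65.8 CPM and 313 CPM. Of 33 sterol and lipid synthesis genes 10 were lower, among them HMGCS1 of cholesterol synthesis (950.0 CPM, 228 CPM). The 3 higher ones were the fatty acid desaturases FADS1 (291 CPM, 1191 CPM) and FADS2 (139.8 CPM, 1661 CPM) and the sterol carrier STARD4 (0 counts, 28.9 CPM). Genes of the integrated stress response and serine synthesis gave 9 higher and 3 lower of 28. The amino acid transporter pair SLC7A5 and SLC3A2 had 299 CPM and 132 CPM in PC-9 and 1618 CPM and 537 CPM in PC-9GR, and the lower members were PHGDH, which commits carbon to serine (366 CPM, 104 CPM), ATF4 (582 CPM, 287 CPM) and CALR (1388 CPM, 678 CPM).

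Among immune-related genes, those of antigen presentation and the NF-kB cytokines and chemokines were lower more often than higher, and interferon-stimulated genes were about even. Of 23 antigen presentation genes 12 were lower and 4 higher (median log2 ratio -1.08). The peptidase ERAP2 had 153 CPM and 3.75 CPM, the class I heavy chain HLA-B 51.7 CPM and 11.4 CPM, and NLRC5, the activator of class I genes, 23.9 CPM and 5.99 CPM; HLA genes are polymorphic, and reads can be lost or shared between them. B2M (288 CPM, 316 CPM) and HLA-E (125 CPM, 98.3 CPM) lay within 2-fold. The higher members were the stress ligand MICA (2.72 CPM, 31.9 CPM), HLA-DMB (0 counts, 8.23 CPM), PSMB9 (4.62 CPM, 12.99 CPM) and HLA-F (1.42 CPM, 3.36 CPM). Interferon-stimulated genes gave 8 higher and 9 lower of 28, with the GTPase GBP1 at 23.4 CPM and 0.336 CPM, STING1 at 24.7 CPM and 3.58 CPM, and IFITM2 at 3 counts and 41.4 CPM beside IFITM3 at 31.6 CPM and 3.58 CPM, 2 near-identical neighbours. Of 33 NF-kB cytokines and chemokines 9 were higher and 14 lower. The adhesion molecule ICAM1 had 492 CPM in PC-9, 3.14 CPM in PC-9GR, 161 CPM in PC-9ER, 218 CPM in HCC827, 457 CPM in HCC827GR and 628 CPM in HCC827ER, 157-fold lower (95% interval 121 to 208) in PC-9GR than in PC-9. CXCL5, a neutrophil chemokine, had 0 counts and 282 CPM, at least 1591-fold higher, CCL2 1 count and 19.99 CPM, and IL1B 14.4 CPM and 0.336 CPM.

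Cancer-testis antigens, germline genes that tumours re-express, were exchanged: 12 of 15 were lower and 3 higher. MAGEA4 had 283 CPM in PC-9, 283 CPM in PC-9ER and 0 counts in PC-9GR, HCC827 and HCC827GR, at least 1682-fold lower in PC-9GR than in PC-9. MAGEA3, MAGEA6 and MAGEC1 had 326 CPM, 224 CPM and 101 CPM in PC-9 and 0 counts each in PC-9GR; MAGEA3 and MAGEA6 are near-identical copies. PRAME was absent from PC-9 and PC-9ER (0 counts each) and had 159 CPM in PC-9GR, at least 894-fold higher. The copies XAGE1A (0 counts, 47.3 CPM) and XAGE1B (0 counts, 5.21 CPM) were the other higher members, and cannot be told apart by reads. Among 16 S100 proteins and metallothioneins 4 were higher and 5 lower. The lower ones were S100A9 (356 CPM, 0 counts) and its partner S100A8 (2.60 CPM, 0 counts), S100A14 (155 CPM, 0 counts), S100P (24.9 CPM, 6.89 CPM) and S100A5 (5.21 CPM, 3 counts). S100A4, known from motile mesenchymal cells, had 6.98 CPM in PC-9, 296 CPM in PC-9GR, 1.80 CPM in PC-9ER, 1.17 CPM in HCC827, 1.47 CPM in HCC827GR and 1.85 CPM in HCC827ER, and S100A6 (244 CPM, 536 CPM), S100A3 (1.48 CPM, 18.8 CPM) and the metallothionein MT1X (10.5 CPM, 28.8 CPM) were the other higher members.

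Ordered along the genome, 13105 genes with at least 1 CPM held 17 runs of at least 5 neighbours that were all at least 4-fold in 1 direction, 11 lower and 6 higher, with 111 genes in all. Several are families of related genes whose reads can be shared. The 14 zinc finger genes from ZNF880 to ZNF816 (chr19:52366858-52962881) were lower with a median log2 ratio of -3.89, and the 8 from ZNF506 to ZNF626 (chr19:19792711-20661571) with -4.10. The kallikreins KLK5, KLK6, KLK7, KLK8 and KLK10 (chr19:50943303-51020097) were lower with a median of -6.97, the keratins from KRT13 to KRT17 (chr17:41500981-41624575) with -5.14, and the X-linked MAGEA and CSAG genes (chrX:152698794-152769689) with -8.74. The APOBEC3 cytidine deaminases with CBX7 and PDGFB (chr22:39014257-39244982) were lower with a median of -3.45, and the guanylate-binding proteins with LRRC8B (chr1:89006680-89597861) with -3.34.

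Runs that are not made of 1 gene family were found too. On chromosome 6, RUNX2, ENPP4, ENPP5, CYP39A1, PLA2G7, ADGRF5, ADGRF1 and TNFRSF21 (chr6:45328330-47309905) were lower with a median log2 ratio of -4.40; RUNX2, a bone factor, had 22.9 CPM in PC-9 and 2.35 CPM in PC-9GR, and TNFRSF21, a death receptor, 534 CPM and 54.5 CPM. On chromosome 22, RAC2, CYTH4, ELFN2, MFNG, CARD10 and CDC42EP1 (chr22:37225270-37569405) were lower with -2.41; RAC2, a GTPase of blood cells, had 249 CPM and 2 counts. On the X chromosome DYNLT3, SRPX, RPGR, TSPAN7, MID1IP1 and BCOR (chrX:37838836-40177277) were higher with 5.99. The corepressor BCOR had 1.18 CPM in PC-9, 54.6 CPM in PC-9GR, 0.754 CPM in PC-9ER, 27.8 CPM in HCC827, 39.7 CPM in HCC827GR and 10.4 CPM in HCC827ER, so PC-9 and PC-9ER stood lowest, near 1 CPM. DYNLT3, a dynein light chain, had 0 counts and 36.5 CPM, and MID1IP1, of lipid synthesis, 0 counts and 78.0 CPM. Copy number was not measured, and neighbours that differ together through DNA or through regulation cannot be told apart. The remaining runs were AKR1E2 to AKR1C4 (chr10:4824973-5218949), MTMR10 to GOLGA8N (chr15:30918716-32607237), 2 protocadherin clusters (chr5:140807068-141012347 and chr5:141330514-141512975) and copies on the short arm of chromosome 21 (chr21:5116341-6468621), all higher, and SERPINB5 to DSEL (chr18:63476958-67516720) and CTAGE4 to ARHGEF5 (chr7:144183466-144380632), both lower.

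**Figure D5:**
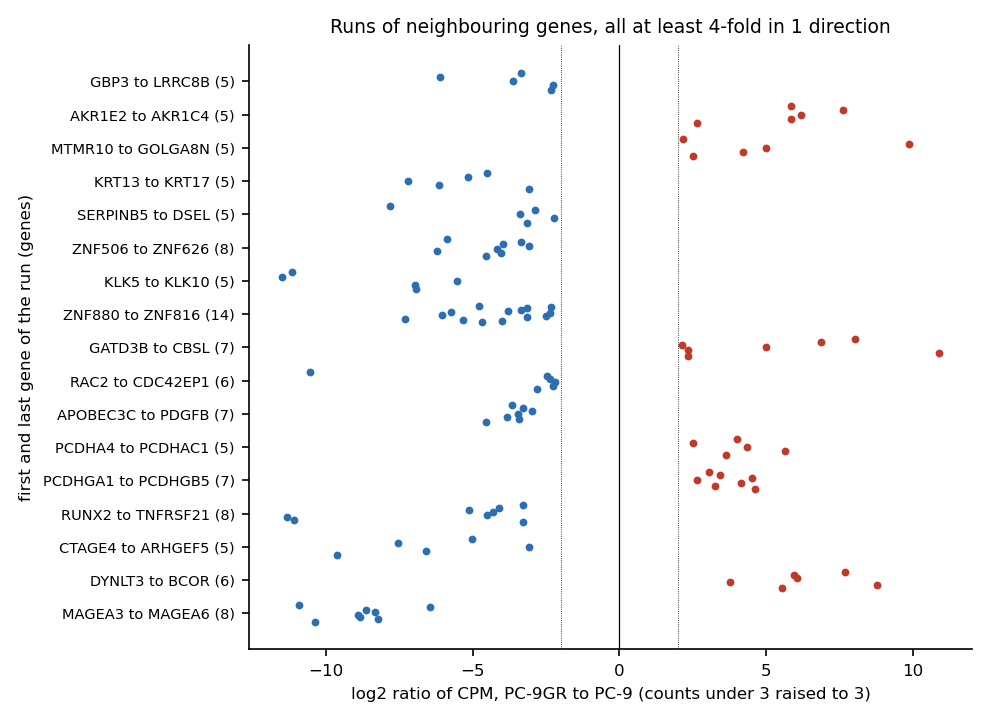
Log2 ratio of CPM, PC-9GR to PC-9, of each gene (points, from first to last within a row) in the 17 runs of neighbouring genes; red runs are higher and blue runs lower in PC-9GR, and dotted lines mark 4-fold. The runs hold 5 to 14 genes, and the longest is a lower run of zinc finger genes.

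The switched genes were also read in the other libraries. By the same rule 3 genes were off and 4 on in PC-9ER against PC-9, over the genes listed in both tables. The Spearman correlation of PC-9ER and PC-9 was 0.970, so the PC-9ER counts below also reflect the likeness of PC-9ER to PC-9. The shares of all genes past these limits were not computed, and the counts are not read as a trait of the switched genes. Of the 260 switched-off genes, all listed in both tables, 216 had at least 5 CPM in PC-9ER and 42 had at least 5 CPM in each of the 5 other libraries. Those 42 included LCP1, ST14, MUC16, CDKN2A and RAC2 and the genes PRSS21, a testis protease with 47.9 CPM in PC-9, and ENG, a TGF-beta coreceptor with 42.9 CPM. PRDX2, an abundant peroxiredoxin of nearly all cells, is also listed at 0 in PC-9GR against 242 CPM in PC-9, and UBE2M, a widely used conjugating enzyme, at 0 in PC-9 and PC-9ER and 108 CPM in PC-9GR. Both are counted among the switched genes, and a listed 0 can be a failed estimate, which was not tested here. The switched counts and the lower bounds on folds therefore take each 0 as listed. Of 323 switched-on genes listed in both tables, 261 had at most 3 counts in PC-9ER, 95 had at least 5 CPM in HCC827, and 47 had at most 3 counts in each of the 5 other libraries. Those 47 included CPLX2, NID1, NID2, FBN2, FOXF2, ITGA11 and KRT4 and the imprinted SNRPN, with 3 counts in PC-9 and 38.3 CPM in PC-9GR. PRSS21, ENG, PRDX2, UBE2M and SNRPN were named after their values were seen.

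Of the derived lines, PC-9GR, PC-9ER and HCC827GR were each set against their own labelled parent, and HCC827ER was not. The list of epithelial transcription and splicing factors, which also holds other epithelial genes, had a median log2 ratio of -5.24 in PC-9GR, -0.42 in PC-9ER and -3.36 in HCC827GR. The surface proteases had -5.54, -0.39 and -2.35. Mucins and secretory genes had -3.83, -1.44 and -5.09, and sterol and lipid synthesis -0.44, -1.01 and -0.67. PC-9ER and HCC827ER were deposited in a separate table, so a difference between the tables cannot be told apart from one between the lines, and no difference between derivatives was tested.

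Markers of other cell types were read in both libraries, since a culture can hold other cells, and their part in the differences was not tested. The summed level of leukocyte markers was 33.6 CPM in PC-9 against 35.5 CPM in PC-9GR, with 3 and 5 of 13 listed at 0, among them CD3D, CD3E and NKG7 in both libraries. Of the 4 with at least 1 CPM, 1 was higher and 1 lower. CD14 was the higher one (1 count, 5.04 CPM), and CD68 was close (25.7 CPM, 26.9 CPM). Fibroblast markers summed to 23.3 CPM against 42.0 CPM, with 3 and 3 of 11 at 0. Of the 3 with at least 1 CPM, 2 were higher and 0 lower. THY1 was higher (1 count, 9.58 CPM) and COL1A1 was close (22.5 CPM, 30.2 CPM). FAP was at 0 in both, and DCN and COL3A1 at 0 in PC-9GR. Endothelial markers summed to 249.98 CPM against 31.5 CPM, with 5 and 7 of 11 at 0, among them KDR, TEK and TIE1 in both. VE-cadherin, CDH5, had 151 CPM in PC-9 and 2 counts in PC-9GR, and PECAM1 68.6 CPM and 0 counts, while ESAM was close at 27.8 CPM and 31.1 CPM. Mesothelial markers summed to 261 and 39.1 CPM, with 1 and 4 of 9 at 0. Of the 5 with at least 1 CPM, 2 were higher and 3 lower. The higher ones were UPK3B (2.01 CPM, 29.4 CPM) and WT1 (0.414 CPM, 8.85 CPM). The lower ones included calretinin, CALB2 (251 CPM, 0.728 CPM), and KRT5 (5.92 CPM, 0 counts). Hepatocyte and acute phase genes summed to 7.46 and 90.3 CPM, with 10 and 5 of 14 at 0, albumin, ALB, having 1 count and 0 counts, and the fibrinogen chains FGA, FGB and FGG and APOH had 0 counts in PC-9 and 35.2 CPM, 23.6 CPM, 4.20 CPM and 15.1 CPM in PC-9GR. Melanocyte and neural crest markers summed to 20.2 and 37.7 CPM, with 3 and 2 of 7 at 0, most of it MITF at 17.5 CPM and 34.9 CPM; PMEL was lower (2.43 CPM, 0.728 CPM) and FOXD3 higher (0 counts, 1.96 CPM). In RNA composition, cytosolic ribosomal protein genes took 4.41% of counts in PC-9 and 5.85% in PC-9GR, with 11 of 52 higher, a share near that of all genes, and 0 lower, and replication-dependent histones summed to 114 and 116 CPM.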

How the data were processed

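The values are expected counts per gene, deposited by the authors and not always whole (14.0% of values in PC-9 and 14.0% in PC-9GR were not), and were rounded here. Per the submitters' processing notes, reads were aligned with HISAT2 2.0.4 to GRCh38.p13 and Cuffdiff was used; the program that made the counts, its annotation and its use of strand are not given in the sources used here. The table with PC-9 and PC-9GR held 16854 genes, of which 11 of chromosome Y were left out; 15998 genes were also listed in the table of the ER lines. From these, CPM used the library total, counts under 3 were raised to 3 in log2 ratios, and a call was at least 2-fold with at least 1 CPM in either library. Scaling by edgeR 4.0.16 (TMM) and DESeq2 1.42.0 (median of ratios) in R 4.3.3, 2 prior counts, expression filters, other folds, other gene sets and unrounded values were alternatives; with 1 library a line no dispersion was estimated and no test was run, so p-values are absent. Python 3.11.15 scripts were tested on simulated counts. Positions of 16721 genes and all promoters came from RefSeq tables (GRCh38.p14), matched by gene ID. Named genes were the 12 largest ratios each way at 50 CPM or more, up to 5 largest (at 5 CPM or more) and 2 smallest (at 20 CPM or more) differences per list, TFF3, EGFR, YAP1 and WWTR1, and genes in runs of neighbours. Members of a list called in a direction with 5 or fewer such members were named too in many lists, though not in all. The 51 gene lists, the comparison and its rule were chosen with earlier results of these data known. A few named genes and 1 gene list are not reported here.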

Additional observations from a re-analysis of the deposited data

Results flagged for a closer look

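Some lists and genes moved in opposite directions in PC-9GR and in another derived line, and those given here are examples, not a full account. None of these differences was tested, since each line had 1 library. Squamous and basal genes had a median log2 ratio of -2.81 in PC-9GR and 1.10 in PC-9ER, both against the same PC-9 library. HOX genes had a median of 1.62 in PC-9GR against PC-9 and -1.06 in HCC827GR against HCC827. Hepatocyte and acute phase genes had a median of 6.41 in PC-9GR, over 5 members with at least 1 CPM, and -0.66 in HCC827GR, over 6. WWTR1 had a log2 ratio of 1.15 in PC-9GR and -1.06 in PC-9ER, again against the same PC-9 library.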

How the results depend on the processing

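The counts moved by over 1.5 times where the call itself was changed and, for runs of neighbours, also where families of similar genes were left out. At 4-fold 1525 genes were higher and 1377 lower, and at 8-fold 1000 and 906. With at least 1 CPM in place of 5 in the other library 713 genes were switched on and 488 off, and with 0 counts in place of at most 3 233 on and 152 off. Runs of neighbours numbered 45 with at least 4 neighbours, 88 at 2-fold and 8 without families that share reads, an alternative chosen after seeing the data. TMM and median-of-ratios scaling, prior counts of 2 and 0.5, filters of 5 CPM and none, the genes of both tables, values not rounded and the removal of those families left the 2-fold counts between 2238 and 3229 higher and between 2287 and 3089 lower. Of 1720 ratios of named genes under other scalings or prior counts 1714 stayed within their counting error and 0 changed sign past a call, and of 255 list medians 33 moved by more and 0 reversed. No paired analysis was possible because each line had 1 library, and no library could be left out. Counts near 3 limit the ratios of genes absent from 1 library, which are lower bounds.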
